A study of Mus musculus with 20 samples.

Results

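The genes described here are 33 genes of glucose uptake, glycolysis, lactate and pyruvate handling, listed by gene symbol, among them Aldoc, which encodes the C form of fructose-bisphosphate aldolase. The list was drawn up by pathway, with earlier results of these data known, the Aldoc result among them. It was read from the deposited array values, with 1 probe set per gene, the one with the highest mean over all arrays. Of the 33, 30 had a probe set among the 18194 genes read, Gpi1, Pfkfb1 and Eno1 having none here, and 28 of those 30 were among the 12499 genes bright enough to test. Eno2, the neuronal enolase, and Slc16a3, a lactate exporter, were measured but lay below that level, with means over the 20 arrays of 6.28 and 6.21 on the log2 scale.

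The study profiled 1 mammary gland from each of 20 female FVB/N mice, all heterozygous for the NRL-TGFα transgene of line 1372-1 TgN(Nrl-tgfalpha)29EPS, in which a neu-related lipocalin promoter drives transforming growth factor α in mammary epithelium and mammary tumors arise with age. At 8.5 weeks of age 10 mice had received an implant releasing 5 mg of tamoxifen, an estrogen receptor modulator, and 10 a drug-free implant (placebo). A number 4 gland free of tumor was taken at 20.5 to 21 weeks, 4 weeks after treatment had ended, and each mouse was then watched to at most 2 years of age for a tumor. A later tumor was recorded for 7 placebo and 3 tamoxifen mice, and none for 3 placebo and 7 tamoxifen mice. No wild-type mice are among the groups, so every value is for transgenic tissue.

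Glycolysis splits glucose into pyruvate, and most of its steps can be run by more than 1 isoform, each encoded by its own gene and favored in different tissues. Aldoa encodes the aldolase of muscle and of most cells and Aldoc the form best known from brain; Pgam2, Pfkm and Eno3 encode the muscle forms of phosphoglycerate mutase, phosphofructokinase and enolase. The mouse mammary gland is a fat pad crossed by epithelial ducts, so that fat and epithelium, and any underlying muscle taken along, can contribute RNA. The source of muscle RNA in these glands was not tested. In whole glands fewer cells of a type and less RNA per cell cannot be told apart.

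All values are log2 expression, so a difference of 1 is a doubling. Array medians lay between 6.82 and 6.89, and the 20 arrays correlated at 0.977 to 0.997 with each other. Along the first principal component, placebo mice 7, 8 and 9, which all later had tumors, lay farthest from the rest, so results that rest on them are also given without them. The outcome and treatment comparisons share animals unevenly, since 7 of the 10 mice with a later tumor had placebo. The labels name each array as a biological replicate from 1 animal.

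Aldoc lies on chromosome 11 from 78323073 to 78327781 (GRCm38.p6, plus strand) and Aldoa on chromosome 7 from 126795234 to 126800994 (minus strand). Promoter windows from RefSeq, each covering 250 bases before to 50 bases after a transcript start, were found for 32 of the 33 genes. The windows of Aldoc, the member that passed the test, are shown with 1 of Aldoa, the isoform of the same step. That of Pgam2 is shown as well. Its difference from Pgam1 passed a test with treatment, but the call was kept in only 7 of 20 tests that left out 1 mouse. Capitals mark ACGTG, the core of the hypoxia response element, on either strand (CACGT on the other), and TTCNNNGAA, the STAT motif, in the aldolase windows, and CANNTG, the E box, in Pgam2.

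Aldoc first start, chr11:78322823-78323122, plus strand: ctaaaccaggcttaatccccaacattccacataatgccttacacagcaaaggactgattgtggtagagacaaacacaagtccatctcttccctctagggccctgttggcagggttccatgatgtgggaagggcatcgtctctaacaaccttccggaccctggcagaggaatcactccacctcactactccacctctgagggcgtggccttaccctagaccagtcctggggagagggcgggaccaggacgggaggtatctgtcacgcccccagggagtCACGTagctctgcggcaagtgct

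Aldoc second start, chr11:78323948-78324247, plus strand: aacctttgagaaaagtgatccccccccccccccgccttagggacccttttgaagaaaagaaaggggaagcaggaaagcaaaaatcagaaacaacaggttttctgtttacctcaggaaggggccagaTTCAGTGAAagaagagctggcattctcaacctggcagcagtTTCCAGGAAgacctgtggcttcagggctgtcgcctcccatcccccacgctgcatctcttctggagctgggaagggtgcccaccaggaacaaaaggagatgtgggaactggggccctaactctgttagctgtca

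Aldoa, chr7:126799205-126799504, minus strand: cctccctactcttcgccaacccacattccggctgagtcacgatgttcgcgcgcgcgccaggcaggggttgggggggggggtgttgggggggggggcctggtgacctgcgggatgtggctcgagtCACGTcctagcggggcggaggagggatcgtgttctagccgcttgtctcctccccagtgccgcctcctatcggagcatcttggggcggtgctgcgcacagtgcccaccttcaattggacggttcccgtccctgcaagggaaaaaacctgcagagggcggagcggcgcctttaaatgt

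Pgam2, chr11:5803747-5804046, minus strand: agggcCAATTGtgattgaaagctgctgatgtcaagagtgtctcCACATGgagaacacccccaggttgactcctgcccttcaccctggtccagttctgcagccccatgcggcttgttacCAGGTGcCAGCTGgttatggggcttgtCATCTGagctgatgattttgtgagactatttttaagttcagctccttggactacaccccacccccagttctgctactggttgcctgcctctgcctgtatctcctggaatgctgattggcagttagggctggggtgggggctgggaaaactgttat

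The first Aldoc window held 1 ACGTG match and the second held 2 TTCNNNGAA matches. TTCNNNGAA was present in 8.30% of all 32851 windows and in 2 of the 51 member windows, 1 of Aldoc and 1 of Pfkm. ACGTG was present in 19.6% of all windows and in 23 of the 51 member windows (45.1%). CANNTG, of which the Pgam2 window held 5 matches, occurred in 72.3% of all windows and in 36 member windows (70.6%). These matches describe the letters only.

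Aldoc was higher in glands of mice that later had a tumor, and the highest levels were those of placebo mice. In placebo glands without later tumor Aldoc was 9.02, 8.36 and 8.50 in mice 3, 5 and 6. In placebo glands with later tumor it was 9.53, 9.65, 9.32, 10.63, 10.28, 9.92 and 9.22 in mice 1, 2, 4, 7, 8, 9 and 10. In tamoxifen glands without later tumor it was 8.50, 8.36, 9.03, 8.31, 8.62, 8.69 and 8.79 in mice 3 to 9, and in tamoxifen glands with later tumor 8.70, 9.17 and 9.17 in mice 1, 2 and 10. Every placebo gland with later tumor exceeded all 13 other glands, and the other 3 groups overlapped one another. The group means were 9.79 ± 0.51 (SD, n = 7) for placebo with tumor, 9.02 ± 0.27 (n = 3) for tamoxifen with tumor, 8.63 ± 0.35 (n = 3) for placebo without and 8.61 ± 0.25 (n = 7) for tamoxifen without.

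**Figure D1:**
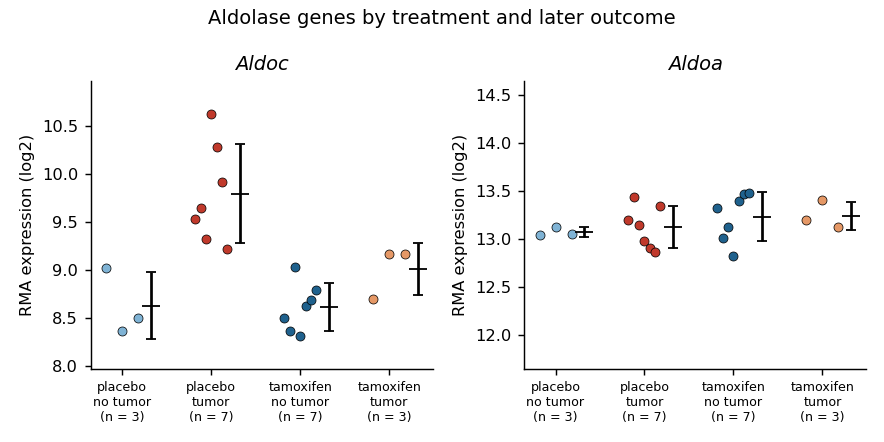
RMA expression (log2) of Aldoc and Aldoa in each gland (points) by treatment and later outcome, with group mean ± SD beside the points; both vertical axes span 3 log2 units. Aldoc in the 7 placebo glands with later tumor lies between 9.22 and 10.63, above all other glands, while the Aldoa groups overlap.

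Over both treatments, Aldoc was 0.94 ± 0.19 (SE) higher with a later tumor (1.92-fold, 10 against 10 mice, limma adjusted p = 0.0431), and 10 of 10 tumor glands lay above the median of the others. It was the only one of the 28 tested members that passed the adjusted threshold of 0.05, a share of 3.57% against 0.232% of all genes tested. Because the list was chosen with the Aldoc result known, these shares cannot show that the list as a whole differed from other genes. That call was lost in 13 of the 20 fits that each left out 1 mouse: it was kept only without placebo mouse 3, 7 or 10 or tamoxifen mouse 1, 2, 5 or 10, with the difference at 0.82 to 1.04 and adjusted p from 0.00899 to 0.0971 over all 20. With treatment as a covariate the difference was 0.78 (adjusted p = 0.288), and without placebo mice 7, 8 and 9 it was 0.63 (adjusted p = 0.0693).

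The 2 largest groups, tamoxifen mice without and placebo mice with a later tumor, differed in Aldoc with no overlap. Aldoc fell by 1.18 in the tamoxifen mice relative to the placebo mice (SE 0.19, 2.26-fold, limma adjusted p = 0.00182, 7 against 7). Groups did not overlap for 1.45% of all genes tested in that comparison, and 4.63% passed the adjusted threshold, against 1 of 28 members (3.57%). The call was kept in 20 of 20 fits without 1 mouse (difference -1.27 to -1.04) and without placebo mice 7, 8 and 9 (-0.82, adjusted p = 0.011). Treatment and outcome differ together between these groups and cannot be told apart in this comparison.

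Within 1 treatment or 1 outcome, Aldoc did not pass adjustment. Among placebo mice it was 1.16 ± 0.25 (SE) higher with a later tumor (7 against 3, limma adjusted p = 0.127), where 0.008% of all genes passed. Its groups did not overlap there, as was so for 4.66% of all genes. Among tamoxifen mice the same difference was 0.40 (3 against 7, 95% interval -0.11 to 0.91), where again 0.008% of all genes passed. The change in the outcome difference between treatments was -0.76 (95% interval -1.49 to -0.04, limma adjusted p = 0.938), with none of the 12499 genes past the adjusted threshold and 4.52% at an unadjusted p under 0.05. Without a later tumor, tamoxifen and placebo glands had nearly equal Aldoc means (difference -0.01), and with a later tumor tamoxifen glands were 0.78 lower (95% interval -1.29 to -0.26) with no overlap (limma adjusted p = 0.703), as was so for 3.53% of all genes; no gene of 12499 passed adjustment there, with 7.0% at an unadjusted p under 0.05.

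The second Aldoc probe set, at a mean of 5.46, was too dim for the test and differed by 0.06 with outcome; the mean of both Aldoc probe sets differed by 0.50 (limma adjusted p = 0.0414). Markers of mammary epithelium moved with Aldoc. The mean of 7 epithelial genes (Epcam, Krt8, Krt18, Krt19, Cdh1, Cldn3 and Cldn7; all 7 bright enough to test), centred on its average over all arrays, was 0.71 in placebo glands with later tumor (range 0.11 to 1.51), -0.09 in tamoxifen glands with later tumor (-0.27 to 0.14), -0.49 in placebo glands without (-1.06 to -0.04) and -0.46 in tamoxifen glands without (-0.95 to 0.16). The 2 glands with the most Aldoc, placebo 7 and 8, were also the 2 with the highest epithelial mean, and the 3 glands with the least Aldoc, tamoxifen 4 and 6 and placebo 5, had the 3 lowest. With this epithelial mean as a covariate, a fit added after the data were seen, Aldoc differed by 0.17 ± 0.10 (SE, adjusted p = 0.954) with outcome and by -0.29 ± 0.13 (adjusted p = 0.95) between the 2 largest groups. None of the 7 epithelial genes passed the adjusted threshold with outcome over both treatments (median difference 0.93, all 7 higher) or among placebo mice (median 1.21, all 7 higher). All 7 were lower in the tamoxifen mice without later tumor than in the placebo mice with one, each past the adjusted threshold; without placebo mice 7, 8 and 9, Cldn7 and Epcam did.

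Milk protein and alveolar genes moved with Aldoc as well: their centred mean was 1.91 in placebo glands with later tumor and -1.41 in tamoxifen glands without. All 6 listed were higher with later tumor over both treatments. Csn1s1, Csn2, Csn3 and Elf5 passed the adjusted threshold, where 0.232% of all genes did, and Csn1s1 alone passed without placebo mice 7, 8 and 9. White fat genes, 5 tested, held centred means between -0.13 and 0.09, with none past the threshold in either comparison.

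**Figure D2:**
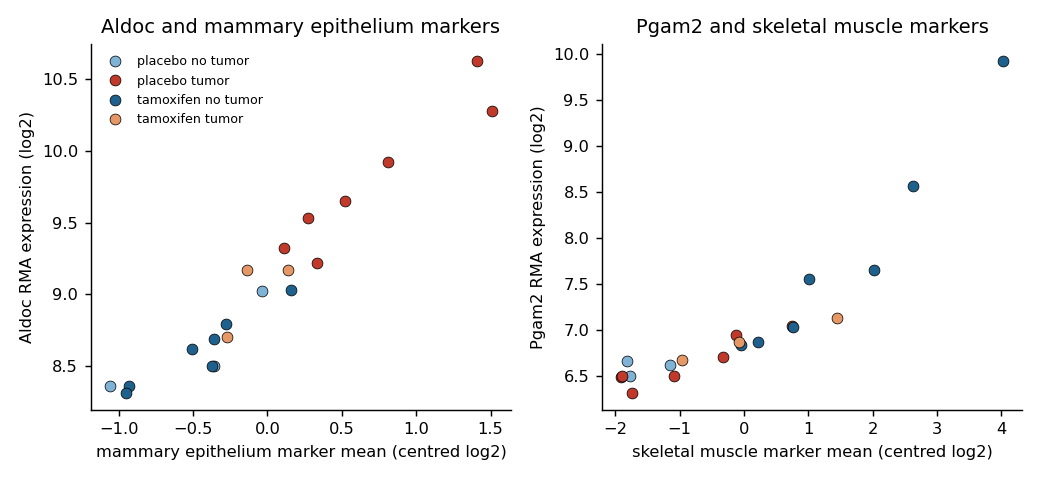
Each point is 1 gland, colored by group: left, Aldoc expression (log2) against the centred mean of 7 mammary epithelium genes; right, Pgam2 expression (log2) against the centred mean of 9 skeletal muscle genes. Glands with the highest Aldoc, placebo 7 and 8, lie at the far right of the epithelial axis, and tamoxifen 7 and 9, with Pgam2 at 9.93 and 8.57, at the far right of the muscle axis.

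Of the other genes from aldolase to pyruvate, Aldoa, Tpi1, Gapdh, Pgk1, Pgam1 and Pkm differed by at most 0.09 with outcome in either direction, and Pgam2, described further on, by -0.71 (95% interval -1.39 to -0.03, limma adjusted p = 0.289). Aldoa, which carries the same step as Aldoc, had group means of 13.07 and 13.13 in placebo glands without and with later tumor and 13.23 and 13.24 in tamoxifen glands without and with, and its outcome difference was -0.02 (95% interval -0.21 to 0.17). Its 5 probe sets gave differences from -0.05 to 0.01. Tpi1, encoding triosephosphate isomerase, Gapdh, the oxidizing step, Pgk1, phosphoglycerate kinase, and Pkm, pyruvate kinase, differed with outcome by -0.01, 0.02, -0.03 and 0.01, with 95% intervals that together ran from -0.20 to 0.22. Gapdh was read by the array's control probe sets, and its 3′ probe set lay 0.25 to 0.16 below the 5′ one with ranges that overlapped in all 4 groups.

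Because levels of different probe sets cannot be compared directly, isoform pairs were compared through the within-array difference and its change between groups, in 8 pairs and 2 comparisons. The difference of Aldoc minus Aldoa rose by 0.96 with later tumor (group SDs 0.71 and 0.29, n = 10 each, permutation p = 0.00032, adjusted over the 16 tests 0.00512). It passed in all 20 tests that left out 1 mouse (0.82 to 1.06) and was 0.55 without placebo mice 7, 8 and 9 (adjusted p = 0.0494). Since Aldoa differed by only -0.02 with outcome, this change largely repeats that of Aldoc and is not separate support for it. The pair was chosen with the Aldoc result known, adjusted over 16 tests only, and tested without treatment in the model. Against placebo glands without later tumor, Aldoc minus Aldoa stood at 1.10 in placebo glands with tumor, 0.21 in tamoxifen glands with tumor and -0.18 in tamoxifen glands without. It was 0.83 lower with tamoxifen than with placebo (permutation p = 0.00464, adjusted 0.0371); that call was lost without placebo mice 7, 8 and 9 (-0.40, adjusted p = 0.177), and without placebo mouse 1, 2 or 8 or tamoxifen mouse 3, 6, 7, 8 or 9 alone (highest adjusted p 0.0686).

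**Figure D3:**
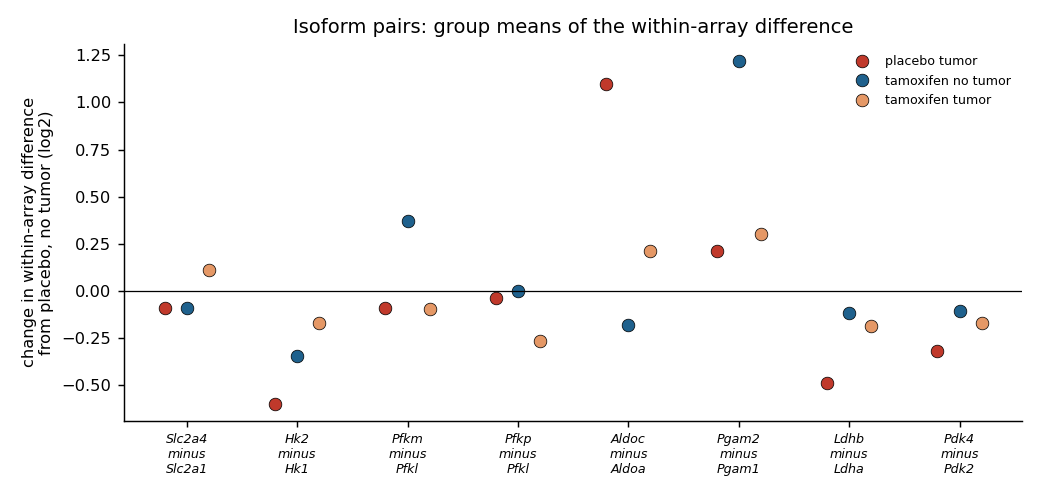
For each of 8 isoform pairs, the group mean of the within-array log2 difference of the first gene minus the second, relative to placebo glands without later tumor (line at 0). Aldoc minus Aldoa stands apart in placebo glands with tumor (1.10) and Pgam2 minus Pgam1 in tamoxifen glands without tumor (1.22).

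Phosphoglycerate mutase showed a different group out of line. Pgam2, the muscle form, was 6.66, 6.62 and 6.50 in placebo glands without later tumor and 6.31, 6.49, 6.94, 7.04, 6.50, 6.50 and 6.70 in those with. In tamoxifen glands without later tumor it was 7.65, 6.83, 6.87, 7.03, 9.93, 7.55 and 8.57 in mice 3 to 9, and in those with a later tumor 6.87, 7.13 and 6.67. Tamoxifen mice 7 and 9 were highest, and the tamoxifen group without later tumor lay wholly above the placebo group without; these 2 groups did not overlap for 2.37% of all genes. Pgam1, the form of most other tissues, had group means between 11.92 and 12.08. Most placebo values of Pgam2 lay below 6.85, the level used to select genes for testing. Pgam2 thus entered the tests through the tamoxifen glands, where it was higher, which limits what its differences can show.

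Pgam2 did not pass the test across genes. It differed by 0.88 ± 0.31 (SE) between tamoxifen and placebo (limma adjusted p = 0.198), by 1.18 among mice without later tumor (adjusted p = 0.712, where 0.064% of all genes passed) and by 1.14 between the 2 largest groups (adjusted p = 0.0685). The within-array difference of Pgam2 minus Pgam1 rose by 0.80 with tamoxifen (permutation p = 0.00874, adjusted over 16 tests 0.0466). That call was lost in 13 of 20 tests that left out 1 mouse (change 0.53 to 0.91) and was kept only without placebo mouse 4, 7 or 9 or tamoxifen mouse 1, 4, 5 or 10. It was also lost after quantile normalization (0.79, adjusted p = 0.0558) and without placebo mice 7, 8 and 9 together (0.88, adjusted p = 0.0584).

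Skeletal muscle genes moved with Pgam2. The centred mean of 9 such genes (Acta1, Ckm, Myh1, Myh4, Tnnt3, Tnnc2, Mylpf, Tnni2 and Actn3, all tested) was 1.52 in tamoxifen glands without later tumor (range -0.04 to 4.03), 0.14 in tamoxifen glands with tumor (-0.96 to 1.44), -0.90 in placebo glands with tumor (-1.91 to 0.75) and -1.58 in placebo glands without (-1.82 to -1.15). Tamoxifen mice 7 and 9 had the highest muscle means, 4.03 and 2.63. With the muscle mean as a covariate, added after the data were seen, the Pgam2 differences turned sign, to -0.27 for treatment, -0.43 among mice without later tumor and -0.12 between the 2 largest groups.

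Phosphofructokinase commits hexose phosphate to glycolysis. Pfkm, its muscle form, was 9.92, 10.00 and 9.57 in placebo glands without later tumor, 9.48 to 9.94 (median 9.63) in those with, 9.70 to 11.06 (median 9.91) in tamoxifen glands without and 9.78, 9.96 and 9.69 in those with. Tamoxifen mouse 7 was highest here too, and all groups overlapped. Its difference was -0.34 ± 0.14 (SE) with outcome (limma adjusted p = 0.217), 0.33 ± 0.14 with treatment (0.290) and 0.47 ± 0.16 between the 2 largest groups (0.0919), and with the muscle mean as a covariate -0.08 for treatment and -0.00 between the 2 largest groups. Pfkl, the liver form, and Pfkp, the platelet form, differed with outcome by 0.01 and -0.10, with 95% intervals of -0.30 to 0.32 and -0.32 to 0.12. The within-array difference of Pfkm minus Pfkl changed by -0.35 with outcome and 0.29 with treatment, which did not pass (permutation, adjusted p = 0.111 and 0.26) but did with the mean of all probe sets (0.0353 and 0.0466).

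Several members had lower values in placebo glands with later tumor without passing adjustment. Pfkfb3, which makes the phosphofructokinase activator fructose 2,6-bisphosphate, was 11.27, 11.78 and 11.73 in placebo glands without later tumor and 10.24 to 11.57 (median 11.04) in those with. It was 11.14 to 11.82 (median 11.38) in tamoxifen glands without later tumor and 10.93 to 11.40 in those with. Every group overlapped the others, and the outcome difference was -0.44 ± 0.15 (SE, limma adjusted p = 0.148), with -0.35 from its second probe set. Pfkfb2 and Pfkfb4, which encode sister enzymes, differed by 0.03 and -0.05, and Fbp2, a muscle form of the enzyme that runs the step backward, by -0.23 (adjusted p = 0.417).

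**Figure D4:**
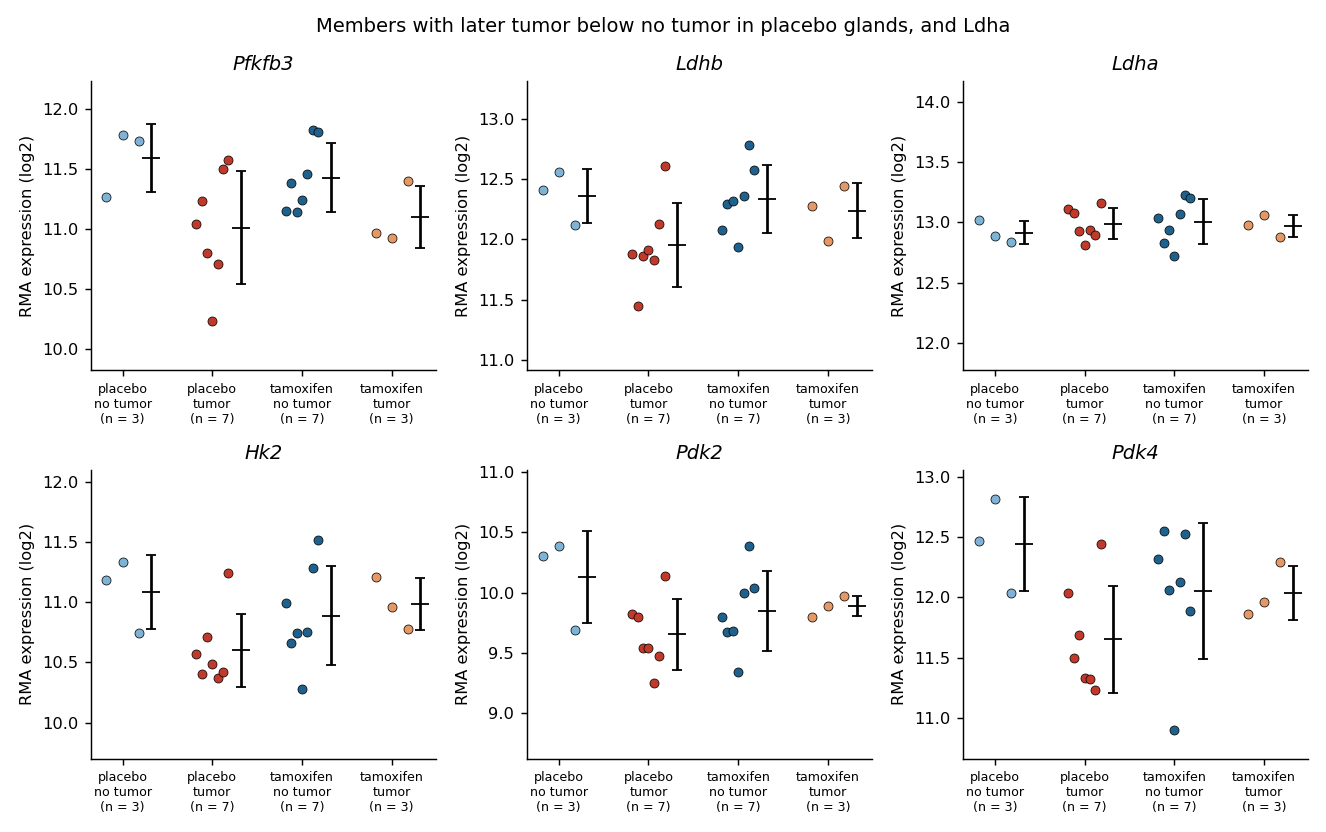
RMA expression (log2) of 6 members in each gland (points) by treatment and later outcome, with group mean ± SD; every vertical axis spans 2.4 log2 units. For Pfkfb3, Ldhb, Hk2, Pdk2 and Pdk4 the placebo glands with later tumor have the lowest group mean, with overlap between groups, and Ldha group means lie between 12.91 and 13.01.

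Lactate dehydrogenase interconverts pyruvate and lactate. Ldhb, the heart form, was 12.12, 12.41 and 12.56 in placebo glands without later tumor, and 11.45 to 12.61 (median 11.88) in those with. It was 11.94 to 12.78 (median 12.32) in tamoxifen glands without later tumor and 11.99, 12.28 and 12.44 in those with. All 4 groups overlapped, and placebo mouse 10, at 12.61, was the highest of its group. The outcome difference of Ldhb was -0.31 ± 0.13 (SE, limma adjusted p = 0.228), with 4 probe sets between -0.44 and -0.31, while that of Ldha, the muscle form, was 0.01 (95% interval -0.12 to 0.14). The within-array difference of Ldhb minus Ldha was 0.31 lower with later tumor, which did not pass (permutation p = 0.0205, adjusted 0.0818), but did without tamoxifen mouse 10 (adjusted p = 0.0191) and with the mean of all probe sets of each gene (0.0353). Slc16a1, a lactate carrier, differed by -0.08 (95% interval -0.42 to 0.26).

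At the entry to the pathway, Hk2, the insulin-responsive hexokinase, was 10.74, 11.18 and 11.33 in placebo glands without later tumor and 10.37 to 11.24 (median 10.49) in those with. Tamoxifen glands held 10.28 to 11.52 (median 10.75) without and 10.78 to 11.21 with later tumor, so that all groups overlapped. Among placebo mice the Hk2 difference was -0.48 ± 0.22 (SE, 7 against 3, limma adjusted p = 0.329), against 0.12 (95% interval -0.12 to 0.35) for Hk1, the form of most cells. The glucose carriers Slc2a4, insulin-responsive, and Slc2a1, widely expressed, differed with outcome by -0.13 and -0.16, with 95% intervals of -0.38 to 0.12 and -0.35 to 0.02.

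At the exit, the pyruvate dehydrogenase kinases switch off the entry of pyruvate into mitochondrial oxidation. Pdk4, the fasting-induced kinase, was 12.04, 12.47 and 12.82 in placebo glands without later tumor and 11.23 to 12.44 (median 11.50) in those with. It was 10.90 to 12.55 (median 12.13) in tamoxifen glands without later tumor and 11.86 to 12.29 in those with. All groups overlapped, and the difference among placebo mice was -0.79 ± 0.30 (SE, limma adjusted p = 0.255), with -0.47 ± 0.20 for Pdk2 (0.287). Pdk1 and Pdk3 differed by -0.05 and 0.17 in that comparison, and the enzyme's own subunits Pdha1 and Pdhb by 0.04 and 0.01.

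Brown fat genes were among several lists with their lowest mean in the same group as these members. The centred mean of 6 such genes (Ucp1, Cidea, Cox7a1, Cox8b, Elovl3 and Dio2) was -0.35 in placebo glands with later tumor (range -1.36 to 0.64), 0.47 in placebo glands without (-0.25 to 0.88), 0.08 in tamoxifen glands without (-1.40 to 0.81) and 0.18 in tamoxifen glands with (-0.07 to 0.41). By gene, 5 of the 6 had their lowest group mean in placebo glands with later tumor, and Elovl3 had its lowest, 10.46, in tamoxifen glands without, against 10.54. None of the 6 passed the adjusted threshold with outcome. Placebo glands with later tumor also had the lowest mean for T cell genes (-0.37), the Schwann cell gene (-0.23) and white fat genes (-0.13). Epithelial, milk and alveolar, basal and erythrocyte means were highest there, and muscle, macrophage and endothelial means were neither. The part of any of these lists in the values of Hk2, Ldhb, Pfkfb3, Pdk2 and Pdk4 was not tested.

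Among all 28 tested members, the median outcome difference was -0.04, against -0.01 over all genes, and 9 were higher with later tumor. At an unadjusted p under 0.05 there were 5 members (17.9%), Aldoc higher and Pfkfb3, Pfkm, Ldhb and Pgam2 lower, against 16.5% of all genes. With treatment 3 members (10.7%) reached that level, Pgam2 and Pfkm higher and Aldoc lower, against 13.9% of all genes, and none passed adjustment, where 0.008% of all genes did. Between the 2 largest groups 5 members (17.9%) reached an unadjusted p under 0.05, against 20.4% of all genes. There 24 of 28 were higher in the tamoxifen mice, against 53.8% of all genes, with a median difference of 0.08 against 0.01. The members were read in the same glands, so their signs are not independent. Among placebo mice 6 members (21.4%) reached an unadjusted p under 0.05 with outcome, against 14.1% of all genes. The shares at an unadjusted p under 0.05 lay near those of all genes tested.

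**Figure D5:**
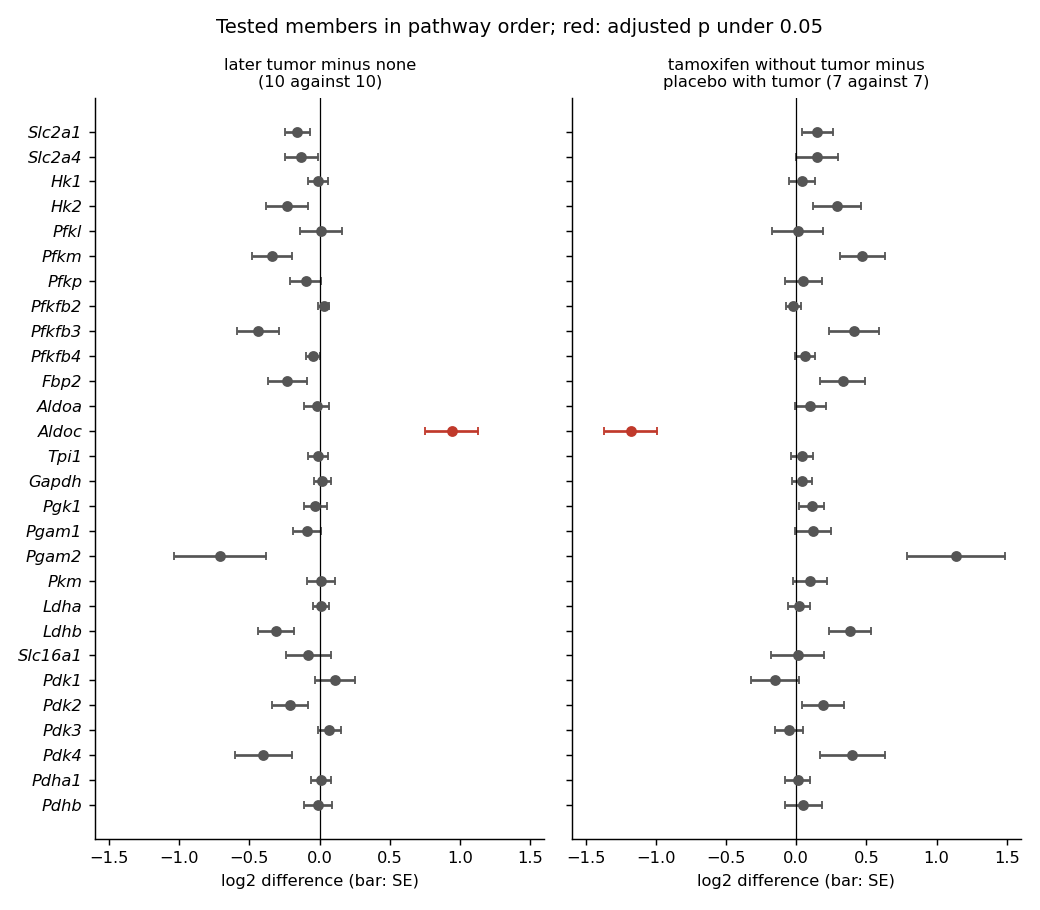
Log2 difference ± SE of the 28 tested members in pathway order: left, later tumor minus none (10 against 10 mice); right, tamoxifen without tumor minus placebo with tumor (7 against 7). Aldoc, in red, passed the adjusted threshold in both (0.94 and -1.18), and no other member did.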

How the data were processed

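Gene expression was measured in 20 mammary glands on 20 Affymetrix arrays, 1 per animal. The deposited values are log2 expression; per the submitters' processing notes the authors used RMA, which corrects background and quantile-normalizes probes; its software: not given in the sources used here. RMA sets all arrays to 1 distribution, so a change shared by most genes would not be seen. Of 45101 probe sets, 34958 carried 1 gene symbol (34754 matched to a current symbol), 932 several and 9211 none; only the first were used. Each gene was read by its probe set of highest mean (18194 genes), and genes above 6.85, the overall median, on at least 3 arrays were tested (12499). Groups come from the labels. limma 3.58.1 (R 4.3.3) with Benjamini-Hochberg adjustment over all genes tested compared outcome and treatment (10 against 10 each) and, in a model of the 4 groups, outcome within treatment, treatment within outcome, their interaction and the 2 largest groups. Isoform pairs were tested by two-sided permutation of the within-array difference (100000 resamples; exact where a group had fewer than 10; scipy 1.17.1). On simulated data the outcome test called 89% of changes of 0.5 and 100% of changes of 1 log2 unit among 12499 genes. Genes were drawn there independently, with the spread within the 4 groups and no treatment effect. The real arrays hold correlated genes and treatment differences, so these shares are not the power of the outcome test here. Named with values were all members past the threshold, both genes of each pair and the 3 members of smallest p in each comparison, plus other members chosen after their values were seen. Members and gene lists were chosen with earlier results of these data known, the Aldoc result among them. The number of arrays limits precision. The labels number animals within treatment and, separately, within outcome; neither numbering was taken to pair animals, since same-number correlations of deviations ran from -0.1 to 0.59 for the first and -0.22 to 0.32 for the second. Alternatives were quantile normalization, no filter, mean of probe sets, limma-trend, blocks, covariates and leaving out animals.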

Additional observations from a re-analysis of the deposited data

Results flagged for a closer look

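Each of 28 members was checked in 2 groups of 7 glands, placebo glands with later tumor and tamoxifen glands without. In 9 of these 56 groups, 1 gland had a gap to the next above 0.568 of the group's range. Chance gives about 1 in 20 for independent groups. These groups share the same glands, and the 9 came from placebo mice 8 and 10 and tamoxifen mouse 6, so that rate is no baseline here. Placebo mouse 10 was highest of the placebo glands with later tumor for Hk2 (11.24), Pfkl (11.94), Pfkp (10.39) and Fbp2 (8.77). Placebo mouse 8 was highest in the same group for Slc2a1 (9.19) and Pdk3 (8.79). Tamoxifen mouse 6 was lowest of the tamoxifen glands without later tumor for Pgam1 (11.43), Pdk4 (10.90) and Slc16a1 (9.69). Without placebo mouse 10, Fbp2 and Ldhb passed the adjusted threshold beside Aldoc between the 2 largest groups (3 of 28 members, 10.7%, limma), where 753 of 12499 genes (6.02%) passed in the same fit.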

How the results depend on the processing

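The Aldoc outcome difference stayed positive in every alternative run, but its adjusted p rose above 0.05 with no filter on dim genes (0.94, 0.0545), and with treatment as a covariate (0.78, 0.288). In fits added once the data had been seen, it did so without placebo mice 7, 8 and 9 (0.63, 0.0693), with the skeletal muscle mean as a covariate (0.92, 0.156) and with the epithelial mean (0.17, 0.954), which also ended the call between the 2 largest groups (-0.29, 0.95). The cause was not tested. Members called with outcome were then 0 in each, as against 1.

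Neither replicate numbering was taken to pair the animals; with the number within outcome as a block Aldoc differed by 0.94 with outcome (adjusted p 0.0805, 0 members called). With the number within treatment as a block, genes called moved from 1 to 235 for treatment, 1 to 602 for outcome among placebo mice (members 0 to 7), 1 to 5 for outcome among tamoxifen mice, 0 to 2 for the interaction, 8 to 3 for treatment without tumor, and 579 to 1647 between the 2 largest groups (members 1 to 9).

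Genes called with outcome, 29, were 14 with no filter, 45 with replicate numbers 1 to 5 against 6 to 10 as a block, 0 with treatment as a covariate, 8 without the 3 placebo mice, 0 with the muscle and 1 with the epithelial covariate. For treatment, 1 gene became 9 with quantile normalization (5 higher, 4 lower), 2 with no filter, 12 with the mean of all probe sets (5 higher, 7 lower), and 0 with outcome as a covariate, without the 3 mice and with either marker covariate. For outcome among placebo mice 1 became 2 with the mean of probe sets, and 0 without the 3 mice or with the epithelial covariate; among tamoxifen mice it became 0 and 2 in the last 2 fits. For treatment without tumor 8 became 4 with the mean of probe sets, 14 without the 3 mice and 1 with the muscle covariate. Between the 2 largest groups 579 became 141 without the 3 mice and 4 with the epithelial covariate (members 0). Isoform tests passed, 3 of 16, were 6 with the mean of probe sets and 1 without the 3 mice.

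Leaving out 1 mouse, genes called ranged from 1 to 118 for outcome (members 0 to 1), 0 to 110 for treatment (0), 0 to 60 for outcome among placebo mice (0 to 1), 0 to 7 among tamoxifen mice (0), 0 to 3 for the interaction (0), 2 to 17 for treatment without tumor (0), 0 to 1 with tumor (0) and 295 to 846 between the 2 largest groups (1 to 3). Aldoc ran from 0.82 to 1.04 with outcome and -1.27 to -1.04 between the 2 largest groups, isoform tests passed from 1 to 4, and Aldoc minus Aldoa from 0.82 to 1.06.

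Signs turned for Slc2a4 with outcome under the epithelial covariate (0.04), Aldoa with outcome without the 3 mice (0.08), and under the muscle covariate Pgam2 (-0.27) and Pfkm (-0.08) with treatment, Pgam2 without tumor (-0.43), and Pgam2 (-0.12) and Pfkm (-0.00) between the 2 largest groups. None of these had passed the test. Dim probe sets limit Eno2, Slc16a3, the second Aldoc probe set and, in placebo glands, Pgam2 and most of the skeletal muscle genes. In tamoxifen glands they limit Csn2 and Wap.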

Other observations

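Of related genes outside the 33, Eno3, the muscle enolase, rose by 1.31 ± 0.31 (SE, limma adjusted p = 0.0213) in tamoxifen glands without later tumor against placebo glands with one, with no overlap. It was 0.14 ± 0.18 with the skeletal muscle mean as a covariate, and 1.27 (adjusted p = 0.134) without placebo mice 7, 8 and 9. Eno3 was the only one of 14 further glycolysis and gluconeogenesis genes tested to pass between these groups, where 4.63% of all genes did. Groups did not overlap for 1.45% of all genes, and the nearest Eno3 values were 8.9 (tamoxifen) and 8.88 (placebo). Lalba, the milk protein that turns galactosyltransferase into lactose synthase, fell by 1.32 between the same groups (limma adjusted p = 0.0373). It was the only one of 7 lactose and galactose genes to pass, and fell by 1.24 (adjusted p = 0.00409) without placebo mice 7, 8 and 9. A single call does not set either list apart from all genes.

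None of 10 pyruvate dehydrogenase and pyruvate entry genes, 7 pentose phosphate genes, 7 glycogen genes, 12 hypoxia response genes and 15 regulators of glycolysis passed in the outcome, treatment or largest-group comparison. Of all genes tested, 0.232%, 0.008% and 4.63% passed in these comparisons, so the absence of calls does not set these lists apart. Nearest to the threshold were Egln3, an oxygen-sensing prolyl hydroxylase, at -0.57 (limma adjusted p = 0.0652), and Pygm, the muscle glycogen phosphorylase, at 1.31 (adjusted p = 0.0862), between the 2 largest groups. Pcx, pyruvate carboxylase, was at -0.56 (adjusted p = 0.0664) there.

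Other tissue markers differed between the 2 largest groups too, where 4.63% of all genes passed the adjusted threshold. In the tamoxifen mice without later tumor, all 4 T cell genes tested and all 9 skeletal muscle genes were higher, and 4 and 6 of them passed. All 6 milk and alveolar genes were lower, and 5 passed. Without placebo mice 7, 8 and 9 the numbers that passed were 0, 1 and 5, where 141 of all 12499 genes did. Most of the muscle genes were dim in placebo glands, and Csn2 and Wap in tamoxifen glands. Such genes entered the tests through the glands where they were higher, which limits what these counts can show. No brown fat gene of 6, macrophage gene of 5, or endothelial gene of 4 passed, and of 5 basal genes Myh11 alone did, lower. The single tested erythrocyte and Schwann cell genes did not pass.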
